A study of Mus musculus with 15 samples.

Results

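The genes described here encode the machinery that copies DNA in S phase. They were taken as a list of 52 gene symbols covering 11 roles, from origin licensing to chromatin assembly, and looked up by symbol in a table of FPKM values (fragments per kilobase of transcript, scaled to the mapped fragments of the library). All 52 were found among its 23284 entries, and all 52 reached a mean of at least 1 FPKM in at least 1 of the 5 populations, as did 11242 entries in all. The cells were mouse OT-I CD8 T cells, whose transgenic T cell receptor recognises the ovalbumin peptide SIINFEKL on H-2Kb. Of the 5 sorted populations, 3 came from culture in a cocktail of the glycolysis inhibitor 2-deoxyglucose, the GSK-3 inhibitor TWS119 and the cytokines IL-7 and IL-21. They are called cocktail CD44lo cells (sorted as CD44loCD62L+), cocktail CD44+CD62L+ cells and cocktail CD44+CD62L- cells. Another was cultured in IL-2 and sorted as CD44+CD62L-, and is called IL-2 cells. Both cultures ran for 14 days after the T cells were mixed with dendritic cells grown from bone marrow and loaded with that peptide, and were passaged once. The fifth population was naive OT-I cells with 0 days in vitro, which the sample labels give as CD44loCD62L+ and the study design as CD44-CD62L+. CD44 marks activated and memory T cells and CD62L, a lymph node homing receptor, marks naive and central memory T cells.

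Each population was sequenced as 3 technical replicates, so every p-value here measures the spread between libraries of 1 population and not between cultures or mice. Library sums lay between 669341 and 781949 FPKM, with 10006 to 10473 entries at 1 FPKM or more, and sequencing depth is unknown. The 10 T cell markers checked, Cd3e, Cd8a and Lck among them, summed to 3174 to 3182 FPKM in cocktail CD44lo cells, 2869.5 to 2876 in cocktail CD44+CD62L+ cells, 3069 to 3077 in cocktail CD44+CD62L- cells, 2543 to 2568 in IL-2 cells and 4307 to 4309 in naive cells. B cell markers summed to 2.77 to 3.06, 2.31 to 2.53, 2.15 to 2.40 and 6.25 to 6.92 FPKM in the same cultured populations, against 41.4 to 42.7 in naive cells.

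DNA replication starts at origins that are licensed before S phase, when the origin recognition complex, Cdc6 and Cdt1 load the ring-shaped MCM2-7 helicase onto DNA. Cyclin-dependent and Dbf4-dependent kinases then switch the helicase on with Cdc45 and GINS, and DNA polymerases copy both strands with the sliding clamp PCNA, while E2F transcription factors drive many of these genes as cells leave quiescence. Naive CD8 T cells rest outside the cycle and start to divide after antigen and cytokine signals.

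The promoters of several of these genes carry an exact E2F-type sequence, and 7 of them are shown because E2F sites are the best known shared feature of this gene class. The sequences are RefSeq windows of GRCm38.p6 on the strand of the gene, upstream of the RefSeq start, with the matched bases in capitals. By the GENCODE vM21 gene bounds the Mcm7, Cdc6 and Gins3 windows lie inside the gene, and that of Orc1 spans the gene start. The Mcm5 window lies at chr8:75109326-75109397 on the plus strand and the Mcm6 window at chr1:128359715-128359845 on the minus strand. The Mcm7 window lies at chr5:138172011-138172078 on the minus strand, that of Cdc6 at chr11:98907983-98908050 on the plus strand and that of Orc1 at chr4:108579397-108579453 on the plus strand. Gins3 is shown from chr8:95633488-95633555 on the plus strand and Pola1 from chrX:93632256-93632323 on the minus strand.
Mcm5: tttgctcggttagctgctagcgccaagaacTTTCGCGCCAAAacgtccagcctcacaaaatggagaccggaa
Mcm6: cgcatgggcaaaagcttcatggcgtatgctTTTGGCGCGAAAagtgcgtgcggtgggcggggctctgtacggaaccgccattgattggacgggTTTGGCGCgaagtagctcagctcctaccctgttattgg
Mcm7: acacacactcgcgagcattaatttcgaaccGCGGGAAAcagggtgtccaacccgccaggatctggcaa
Cdc6: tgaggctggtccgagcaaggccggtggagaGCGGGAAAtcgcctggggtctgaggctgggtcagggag
Orc1: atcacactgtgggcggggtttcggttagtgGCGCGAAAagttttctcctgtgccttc
Gins3: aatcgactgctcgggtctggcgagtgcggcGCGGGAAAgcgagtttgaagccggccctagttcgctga
Pola1: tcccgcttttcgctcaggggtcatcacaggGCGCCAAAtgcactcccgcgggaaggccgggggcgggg

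The letters searched were TTTCCCGC, TTTGGCGC, TTTGCCGC and TTTCGCGC on both strands, so that they also appear as GCGGGAAA, GCGCCAAA, GCGGCAAA and GCGCGAAA, in windows of 250 bases before to 50 bases after each start. Of the 52 genes, 43 had a promoter entry, and 16 of those 43 (37.2%) held a match, against 2.60% of the 27025 genes in the promoter table and 4.94% of the 8009 tested genes with an entry. By window the shares were 16 of 50 (32.0%) for these genes, against 2.26% of all 32851 windows. In Mcm5 and in Mcm6 2 of the 8-base matches overlapped, as the 12 capitals in a row show. Cdt1, Clspn, E2f2, Lig1, Mcm3, Pold1, Pold3 and Pole2 held matches only after the start. Mcm7 and Rfc3, the latter not shown, held matches on both sides of it. The pentamer CCAAT, on either strand, stood in 27 of the 50 windows (54.0%), against 37.4% of all windows. A match is a run of letters and no measurement of binding. The median log2 fold change of IL-2 over naive cells was 2.48 for the 16 genes with a match and 2.38 for the 27 without one, and that of cocktail CD44lo over cocktail CD44+CD62L+ cells was -0.95 and -0.93. Ccne2, Gins1, Gins2, Gins4, Gmnn, Mcm4, Pole, Prim2 and Rfc2 had no entry.

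Of the 52 genes, 48 had their highest mean in IL-2 cells and 48 their lowest in naive cells, with the 3 cocktail populations between. The median over the genes of the population mean was 24.4 FPKM in cocktail CD44lo cells, 45.6 in cocktail CD44+CD62L+ cells, 41.4 in cocktail CD44+CD62L- cells, 54.8 in IL-2 cells and 9.97 in naive cells. In 42 of the 52 the means followed 1 order, with IL-2 cells highest, then cocktail CD44+CD62L+, cocktail CD44+CD62L-, cocktail CD44lo and naive cells. The 4 genes whose highest mean was instead in cocktail CD44+CD62L+ cells were Cdc7, Pold1, Pold3 and Pole. The 4 whose lowest mean was in cocktail CD44lo cells were Dbf4, Pole2, Rfc1 and Rpa1. In bulk RNA, fewer cycling cells and less of each RNA per cell cannot be told apart, here and in every comparison that follows.

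**Figure D1:**
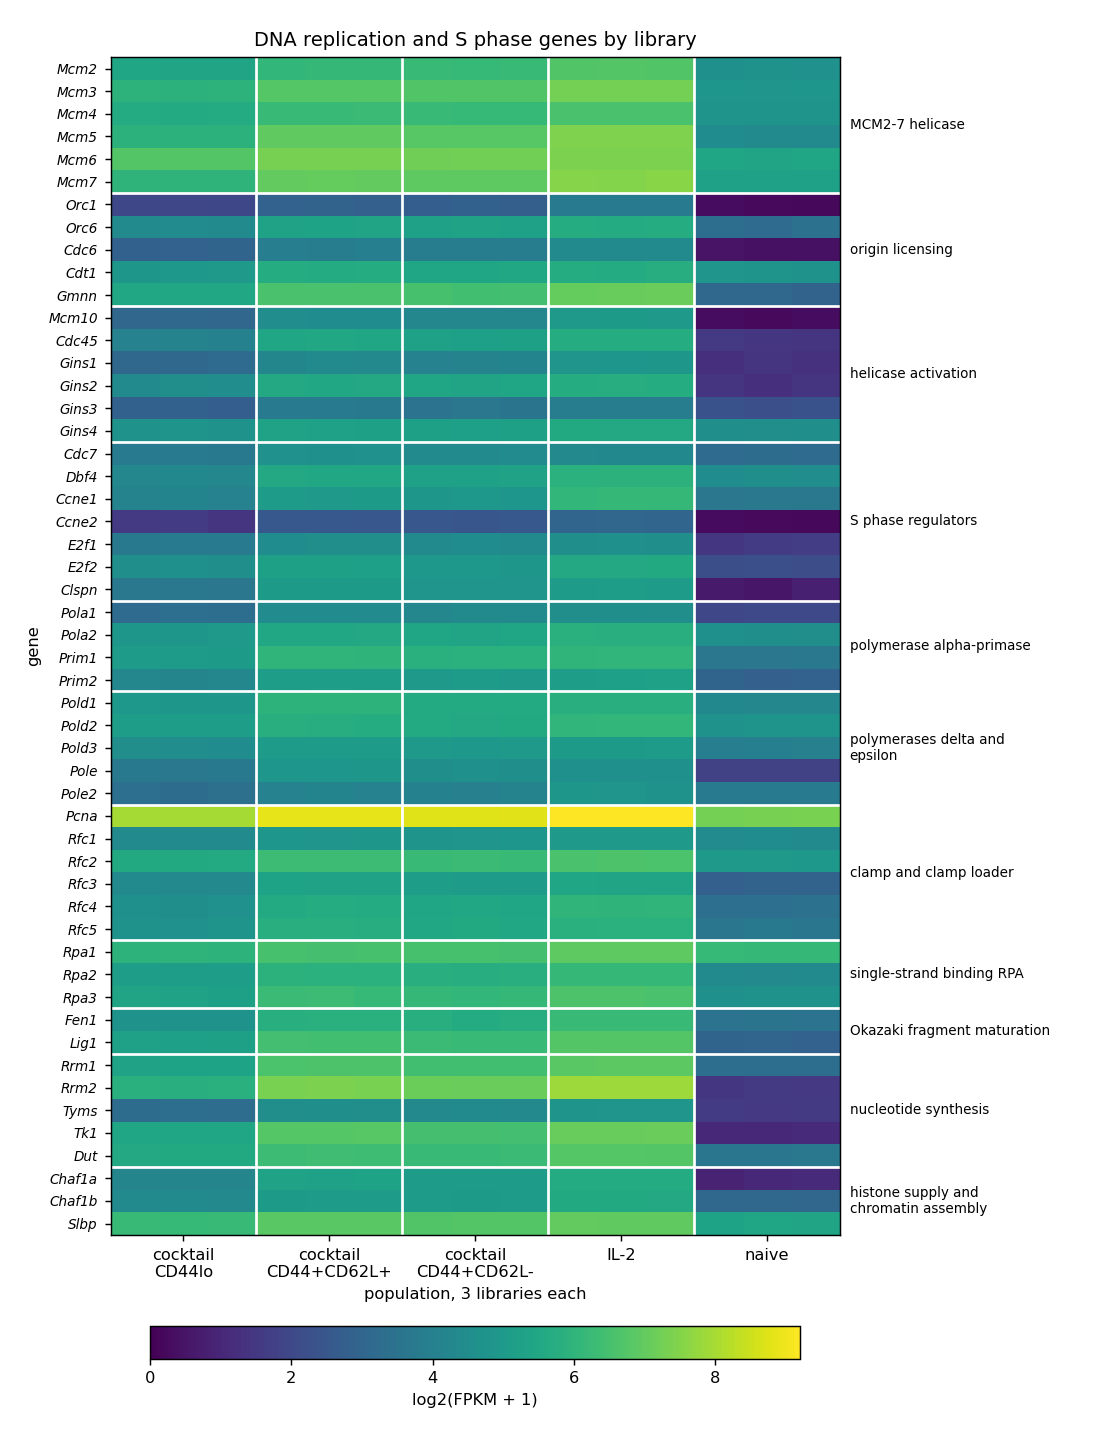
Level of each of the 52 genes, in log2(FPKM + 1), in each of the 15 libraries, with genes in rows by role and the 5 populations in blocks of 3 libraries. Most rows are brightest in the IL-2 block and darkest in the naive block, and the cocktail CD44lo block lies between naive and the other cultured cells.

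The list was not silent in naive cells. A mean of 10 FPKM or more was found for 43 of the 52 genes in cocktail CD44lo, 50 in cocktail CD44+CD62L+, 50 in cocktail CD44+CD62L-, 51 in IL-2 and 26 in naive cells. The 5 that were under 1 FPKM in naive cells were Mcm10, Orc1, Cdc6, Ccne2 and Clspn, and no gene of the list was under 1 FPKM in a cultured population. The ratio of the IL-2 to the naive mean ran from 1.46 for Rfc1 to 139 for Mcm10, with a median of 5.73. The libraries of a population lay close together, with a median coefficient of variation over the genes of 1.92% in cocktail CD44lo, 1.499% in cocktail CD44+CD62L+, 1.60% in cocktail CD44+CD62L-, 1.29% in IL-2 and 3.46% in naive cells.

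Within the cocktail culture, cocktail CD44lo cells held less of every replication gene than cocktail CD44+CD62L+ cells, both being CD62L+. A gene was called when its limma adjusted p, over all 11242 genes tested, was under 0.05 and its log2 fold change of FPKM + 1 was at least 1 in size, which is a change of at least 2-fold. By that rule 22 of the 52 fell and 0 rose, against 2.26% of all genes tested that fell and 0.418% that rose. All 3 cocktail CD44lo libraries lay below all 3 cocktail CD44+CD62L+ libraries for 52 of the 52, against 38.4% of all genes tested. The median log2 fold change was -0.94, with a range of -1.52 to -0.44, where all genes tested had a median of 0.00. With a minimum of 1.5-fold, 46 of the 52 were lower, against 6.11% of all genes tested, and with a pseudocount of 5 in place of 1 the 2-fold count was 10. Mcm5, Mcm7, Gmnn, Pola1, Pole, Rfc5 and Chaf1a were among those that then missed the fold minimum, and Mcm7 and Gmnn also missed it under quantile normalization. Nucleotide synthesis genes had the most negative role median, -1.28 with 4 of 5 called, and chromatin assembly genes the least negative, -0.68 with 1 of 3 called.

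Cocktail CD44lo cells still exceeded naive cells, which share their CD44loCD62L+ sort label. Of the 52 genes, 31 rose and 0 fell by the same rule, against 11.6% and 6.11% of all genes tested. All libraries lay above naive for 48 genes and below naive for 3, against 43.4% and 45.8% of all genes tested, and Rfc1 overlapped. With a pseudocount of 5 the count was 20. The median log2 fold change was 1.25. As a description, cocktail CD44lo cells held a median of 36.4% of the FPKM by which cocktail CD44+CD62L+ cells exceeded naive cells, from -135% for Pole2, which lay below naive cells, to 60.4% for E2f2.

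Cocktail CD44+CD62L+ and cocktail CD44+CD62L- cells differed little in these genes. None of the 52 was called in either direction, against 0.0356% of all genes tested that rose and 0.0801% that fell, and a minimum of 1.5-fold also gave 0 and 0, against 0.294% and 0.338%. The small differences ran 1 way all the same. All CD62L+ libraries lay above all CD62L- libraries for 42 genes and below them for 1, Mcm2, against 27.7% and 28.0% of all genes tested. The median log2 fold change was 0.14. The largest were those of E2f2 (log2 fold change 0.32, SE 0.0220, limma adjusted p = 1.5e-07), Tk1 (log2 fold change 0.32, SE 0.0215, limma adjusted p = 1.2e-07) and Pold1 (log2 fold change 0.31, SE 0.0151, limma adjusted p = 5.9e-09). For Mcm2 the log2 fold change was -0.08 with a limma adjusted p of 0.002.

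Cells that shared the CD44+CD62L- phenotype but not the culture could be compared directly. Cocktail CD44+CD62L- cells held less of nearly all these genes than IL-2 cells, by small amounts. Only Ccne1 passed the 2-fold rule, as 1 of 52 lower and 0 higher, against 3.20% and 4.64% of all genes tested, so that the share called was near the background. Without regard to size, all cocktail libraries lay below all IL-2 libraries for 50 genes and above them for 1, Cdc7, against 43.9% and 40.6% of all genes tested, and Pole overlapped. The median log2 fold change was -0.46, where all genes tested had -0.01. At 1.5-fold, 12 of 52 were lower, against 10.8% of all genes tested. Orc1 joined Ccne1 at 2-fold with a pseudocount of 0.1, under quantile normalization and without any 1 of IL-2 library 1, IL-2 library 3 and cocktail CD44+CD62L- library 2.

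Cocktail CD44+CD62L+ cells differed from IL-2 cells in both culture and CD62L. Again 1 of 52, Ccne1, fell and 0 rose, against 3.49% and 4.67% of all genes tested, and under quantile normalization Ccne1 missed the fold minimum, which left 0. All libraries lay below IL-2 for 46 genes, above for the 4 genes Cdc7, Pold1, Pold3 and Pole, and overlapped for Cdt1 and Prim2, against 42.8% below and 42.3% above over all genes tested. At 1.5-fold, 4 were lower, against 10.8%. The median was -0.32. Under quantile normalization the median was -0.17, and Cdt1, Mcm6, Prim1, Prim2, Rfc5 and Slbp turned from slightly lower to slightly higher, so that 10 in place of 4 genes were higher than in IL-2 cells. In cocktail CD44+CD62L- against IL-2 cells, Mcm6 and Pole turned in the same way. These comparisons share libraries, so their values stand side by side and are not independent.

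Against naive cells the other cultured populations were higher throughout. Of the 52 genes, 44 rose in cocktail CD44+CD62L+ cells (background 14.4% higher and 8.44% lower), 43 in cocktail CD44+CD62L- cells (13.9% and 8.59%) and 47 in IL-2 cells (17.6% and 13.7%), and none fell. All 52 were above naive in every library of each, against 45.3%, 44.9% and 46.9% of all genes tested in the same order. Median log2 fold changes were 2.18, 2.02 and 2.45. The 5 that missed the 2-fold rule in IL-2 cells were Cdt1, Gins4, Pole2, Rfc1 and Rpa1.

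**Figure D2:**
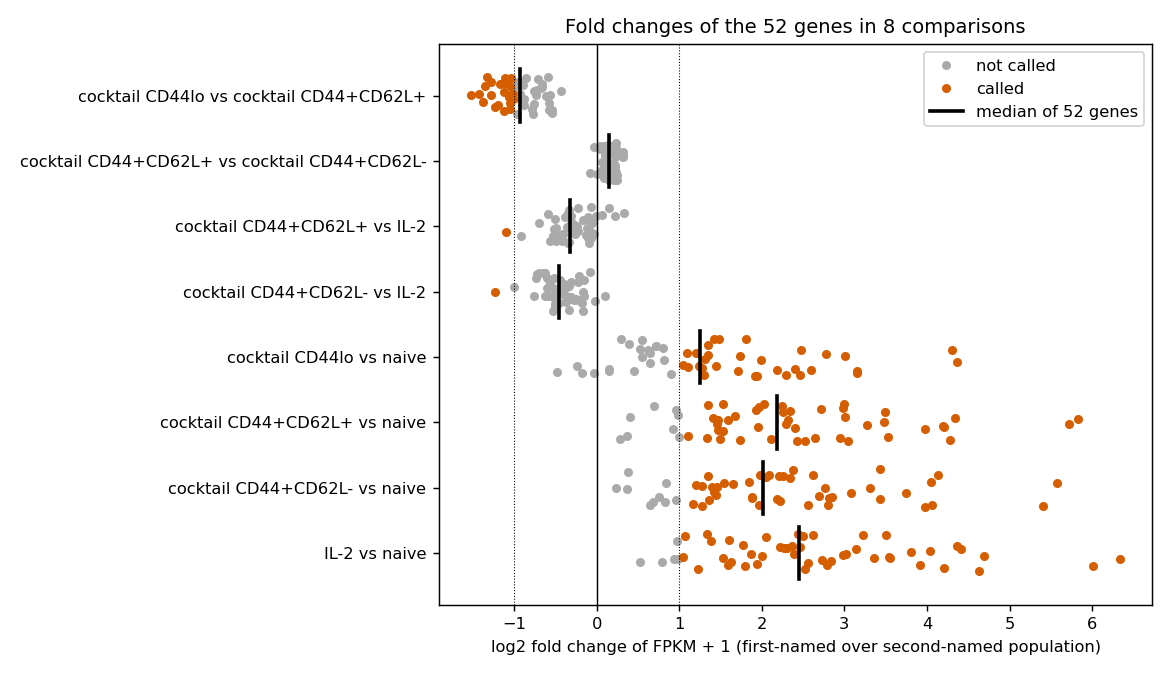
Log2 fold change of FPKM + 1 of each of the 52 genes (1 point each) in the 8 comparisons, with genes called by limma adjusted p and 2-fold size in orange, the rest in grey, and a black bar at the median. The points of cocktail CD44lo against cocktail CD44+CD62L+ cells all lie left of 0. Those of the cocktail CD44+CD62L+ and CD44+CD62L- cells against IL-2 cells sit mostly just left of 0.

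The MCM2-7 genes encode the 6 subunits of the ring that unwinds DNA. Mcm6 had 106, 107 and 106 FPKM in cocktail CD44lo cells, 159, 159.6 and 159.7 in cocktail CD44+CD62L+ cells and 148, 150.4 and 150.4 in cocktail CD44+CD62L- cells. It stood at 167, 167 and 166 FPKM in IL-2 cells and 41.1, 40.6 and 41.7 in naive cells. Mcm6 had the highest mean of the 6 in every population except IL-2 cells, where Mcm7 was higher. Its cocktail CD44lo libraries lay below those of the other cultured cells (log2 fold change -0.58, SE 0.00981, limma adjusted p = 1.3e-14 against cocktail CD44+CD62L+ cells) and above naive cells with no overlap. Its difference between cocktail CD44+CD62L- and IL-2 cells was the smallest of the 6, a log2 fold change of -0.16 with a limma adjusted p of 4.2e-09, and turned to a positive value under quantile normalization. Mcm5 had 59.7, 59.3 and 58.9 FPKM in cocktail CD44lo cells, against 123, 122 and 125 FPKM in cocktail CD44+CD62L+ cells. It fell by the 2-fold rule (log2 fold change -1.04, SE 0.0165, limma adjusted p = 7.0e-15), with no overlap. Mcm7 had 61.9, 62.3 and 62.8 FPKM in cocktail CD44lo cells, against 127, 128 and 127 FPKM in cocktail CD44+CD62L+ cells. Mcm7 also fell (log2 fold change -1.02, SE 0.0125, limma adjusted p = 8.7e-16). Mcm7 had 119.7, 119 and 120.3 FPKM in cocktail CD44+CD62L- cells, against 186, 182 and 188 FPKM in IL-2 cells. That was the largest MCM2-7 difference between the CD44+CD62L- populations, a log2 fold change of -0.62 with a limma adjusted p of 2.5e-14. Mcm4 differed least between cocktail CD44lo and cocktail CD44+CD62L+ cells, at 50.2, 48.9 and 49.8 against 73.7, 73.9 and 75.6 FPKM (log2 fold change -0.57, SE 0.0134, limma adjusted p = 2.7e-13). Mcm2 averaged 40.7 ± 0.605 and 68.7 ± 0.776 FPKM in the same populations and Mcm3 59.9 ± 0.296 and 109 ± 0.563 (SD, n = 3 each).

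Licensing factors split in naive cells. Orc1, the largest ATPase subunit of the origin recognition complex, and Cdc6, which joins it to load MCM2-7, were both under 1 FPKM in naive cells. Orc1 had 2.97, 2.88 and 3.01 FPKM in cocktail CD44lo cells, 6.47, 6.55 and 6.14 in cocktail CD44+CD62L+ cells and 5.66, 6.30 and 5.95 in cocktail CD44+CD62L- cells. It stood at 12.8, 13.1 and 12.8 FPKM in IL-2 cells and 0.247, 0.170 and 0.135 in naive cells. The naive libraries were the lowest and the IL-2 libraries the highest, without overlap. Between cocktail CD44+CD62L- and IL-2 cells the Orc1 difference stood at the fold minimum and just missed it (log2 fold change -0.9999, SE 0.0401, limma adjusted p = 3.3e-11). Cdc6 averaged 6.48 ± 0.284 FPKM in cocktail CD44lo, 14.3 ± 0.494 in cocktail CD44+CD62L+, 13.6 ± 0.164 in cocktail CD44+CD62L-, 19.5 ± 0.0485 in IL-2 and 0.358 ± 0.0386 in naive cells, and Orc6, the smallest subunit, 20.4 ± 0.360, 39.7 ± 1.10, 38.05 ± 0.231, 50.7 ± 0.742 and 9.01 ± 0.687 in the same order (SD, n = 3).

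Cdt1, the loader of MCM2-7, and its inhibitor geminin (Gmnn) had log2 fold changes of unequal size. Gmnn had 44.5, 44.8 and 43.7 FPKM in cocktail CD44lo cells, 93.7, 93.0 and 92.7 in cocktail CD44+CD62L+ cells and 91.3, 84.3 and 85.7 in cocktail CD44+CD62L- cells. It stood at 131, 132 and 138 FPKM in IL-2 cells and 7.43, 7.53 and 6.65 in naive cells. Cdt1 had 28.6, 29.2 and 29.9 FPKM in cocktail CD44lo cells, 51.0, 50.2 and 50.7 in cocktail CD44+CD62L+ cells and 41.3, 42.9 and 43.9 in cocktail CD44+CD62L- cells. It stood at 51.2, 50.2 and 51.9 FPKM in IL-2 cells and 27.1, 26.4 and 25.2 in naive cells. Gmnn rose in cocktail CD44lo over naive cells (log2 fold change 2.47, SE 0.0380, limma adjusted p = 6.5e-16), while Cdt1 differed by a log2 fold change of 0.15 with a limma adjusted p of 1.5e-04. Against cocktail CD44+CD62L+ cells, Gmnn fell in cocktail CD44lo cells (log2 fold change -1.05, SE 0.0380, limma adjusted p = 2.4e-11) and Cdt1 gave -0.77 with a limma adjusted p of 1.8e-11. The ratio of Gmnn to Cdt1 FPKM was 1.52 ± 0.0510 in cocktail CD44lo, 1.84 ± 0.0118 in cocktail CD44+CD62L+, 2.04 ± 0.145 in cocktail CD44+CD62L-, 2.61 ± 0.0527 in IL-2 and 0.275 ± 0.0106 in naive cells (SD, n = 3). Geminin RNA was thus above Cdt1 RNA in every cultured population and below it in naive cells. Cdt1 libraries of cocktail CD44+CD62L+ and IL-2 cells overlapped.

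Helicase activation factors included Mcm10, with the highest ratio of IL-2 to naive cells in the list. That ratio rests on a naive mean of 0.220 FPKM, and on the log2(FPKM + 1) scale the change of Rrm2 was larger. Mcm10 had 7.28, 7.58 and 7.24 FPKM in cocktail CD44lo cells, 21.8, 21.1 and 21.5 in cocktail CD44+CD62L+ cells and 18.0, 18.1 and 18.3 in cocktail CD44+CD62L- cells. It stood at 30.5, 31.0 and 30.2 FPKM in IL-2 cells and 0.232, 0.187 and 0.241 in naive cells. Mcm10, which helps the assembled helicase start unwinding, was lowest in naive cells, and its populations did not overlap. It fell in cocktail CD44lo against cocktail CD44+CD62L+ cells (log2 fold change -1.42, SE 0.0233, limma adjusted p = 9.8e-15) and gave -0.72 with a limma adjusted p of 3.4e-12 in cocktail CD44+CD62L- against IL-2 cells. Cdc45, the helicase cofactor, averaged 16.01 ± 0.378 FPKM in cocktail CD44lo and 43.4 ± 0.752 in cocktail CD44+CD62L+ cells, against 1.82 ± 0.147 in naive cells (SD, n = 3 each).

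The 4 GINS genes, whose products form 1 complex, were far apart in naive cells. In these Gins4 stood at 22.9, 22.2 and 23.3 FPKM, Gins3 at 3.98, 3.71 and 3.98, Gins2 at 1.58, 1.39 and 1.65 and Gins1 at 1.38, 1.67 and 1.51. Gins4 was the highest of the 4 in naive cells and Gins1 the lowest. Gins4 had 25.2, 26.0 and 24.8 FPKM in cocktail CD44lo cells, 38.5, 37.2 and 36.2 in cocktail CD44+CD62L+, 37.0, 35.3 and 36.3 in cocktail CD44+CD62L- and 46.9, 45.8 and 45.4 in IL-2 cells. All cocktail CD44lo libraries were above naive by a small amount (log2 fold change 0.15, SE 0.0264, limma adjusted p = 1.5e-04), and Gins4 was also the helicase activation gene that differed least between cocktail CD44lo and cocktail CD44+CD62L+ cells (log2 fold change -0.54, SE 0.0264, limma adjusted p = 5.7e-10). Gins2 was called there, with 19.96, 22.6 and 22.01 FPKM in cocktail CD44lo cells, against 46.3, 45.0 and 45.7 in cocktail CD44+CD62L+ cells, and had 41.5, 40.8 and 41.3 in cocktail CD44+CD62L- cells. In IL-2 cells Gins2 was the highest of the 4 at 51.1, 52.4 and 50.5 FPKM and Gins3 the lowest at 13.7, 13.8 and 14.1. The ratio of the highest to the lowest GINS gene was 4.14 ± 0.174 in cocktail CD44lo, 3.599 ± 0.117 in cocktail CD44+CD62L+, 3.83 ± 0.256 in cocktail CD44+CD62L-, 3.70 ± 0.1003 in IL-2 and 15.97 ± 0.589 in naive cells (SD, n = 3).

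Ccne1, cyclin E1 (chr7:38097984-38107534, minus strand, GRCm38), which activates Cdk2 at the start of S phase, was the 1 gene of the list called lower in cocktail CD44+CD62L- and in cocktail CD44+CD62L+ cells than in IL-2 cells on the log2(FPKM + 1) scale. The ratio of mean FPKM to that of IL-2 cells was 0.416 in cocktail CD44+CD62L- cells and 0.457 in cocktail CD44+CD62L+ cells, and Orc1, at 0.462 and 0.494, was also under 0.5. Ccne1 had 16.3, 16.9 and 16.1 FPKM in cocktail CD44lo cells, 32.5, 29.97 and 31.0 in cocktail CD44+CD62L+ cells and 28.5, 29.2 and 27.5 in cocktail CD44+CD62L- cells. It stood at 66.8, 68.4 and 69.3 FPKM in IL-2 cells and 11.7, 11.7 and 11.8 in naive cells. It was below IL-2 in every cocktail library, with a log2 fold change of -1.24 with a limma adjusted p of 1.2e-13 in cocktail CD44+CD62L- cells and -1.11 with a limma adjusted p of 3.7e-13 in cocktail CD44+CD62L+ cells. Between cocktail CD44lo and cocktail CD44+CD62L+ cells it did not reach the fold minimum (log2 fold change -0.88, SE 0.0289, limma adjusted p = 8.6e-12). Cyclin E2 (Ccne2) was far lower, at 1.88 ± 0.178 FPKM in cocktail CD44lo, 4.75 ± 0.139 in cocktail CD44+CD62L+, 4.61 ± 0.132 in cocktail CD44+CD62L-, 7.08 ± 0.138 in IL-2 and 0.172 ± 0.0254 in naive cells (SD, n = 3).

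Cdc7 and Dbf4 encode the catalytic and activating subunits of the kinase that phosphorylates MCM2-7, and their patterns differed. Cdc7 had 12.4, 12.6 and 12.3 FPKM in cocktail CD44lo cells, 23.9, 23.6 and 24.04 in cocktail CD44+CD62L+ cells and 19.7, 19.98 and 20.6 in cocktail CD44+CD62L- cells. It stood at 18.96, 18.5 and 18.7 FPKM in IL-2 cells and 8.29, 8.46 and 8.41 in naive cells. Cdc7 was highest in cocktail CD44+CD62L+ cells with no overlap, at a log2 fold change of 0.33 with a limma adjusted p of 1.0e-09 against IL-2 cells, and was the single gene of the list above IL-2 in cocktail CD44+CD62L- cells, at 0.10 with a limma adjusted p of 3.0e-04. Dbf4 had 18.4, 18.8 and 18.2 FPKM in cocktail CD44lo cells, 46.1, 44.4 and 44.4 in cocktail CD44+CD62L+ cells and 37.5, 37.0 and 38.9 in cocktail CD44+CD62L- cells. It stood at 57.8, 59.8 and 59.2 FPKM in IL-2 cells and 21.5, 22.8 and 21.8 in naive cells. Dbf4 was highest in IL-2 cells and lowest in cocktail CD44lo cells, whose libraries were all below naive (log2 fold change -0.24, SE 0.0250, limma adjusted p = 6.0e-07). Against cocktail CD44+CD62L+ cells it fell by 1.24 on the log2 scale (limma adjusted p = 6.2e-14). The ratio of Dbf4 to Cdc7 FPKM was 1.48 ± 0.00730 in cocktail CD44lo, 1.88 ± 0.0398 in cocktail CD44+CD62L+, 1.88 ± 0.0265 in cocktail CD44+CD62L-, 3.15 ± 0.0924 in IL-2 and 2.63 ± 0.0578 in naive cells (SD, n = 3).

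E2f1 and E2f2 encode activator E2F factors. E2f2 had 23.2, 23.6 and 23.2 FPKM in cocktail CD44lo cells, 36.3, 36.7 and 35.9 in cocktail CD44+CD62L+ cells and 29.1, 29.3 and 28.4 in cocktail CD44+CD62L- cells. It stood at 45.8, 46.3 and 46.7 FPKM in IL-2 cells and 3.596, 3.79 and 3.48 in naive cells. E2f2 populations did not overlap. It differed least among the S phase regulators between cocktail CD44lo and cocktail CD44+CD62L+ cells (log2 fold change -0.62, SE 0.0220, limma adjusted p = 2.2e-11). E2f1 averaged 12.6 ± 0.403 FPKM in cocktail CD44lo, 22.002 ± 0.690 in cocktail CD44+CD62L+, 20.5 ± 0.781 in cocktail CD44+CD62L-, 23.2 ± 0.269 in IL-2 and 1.98 ± 0.210 in naive cells (SD, n = 3). Clspn, the adaptor claspin that links the kinase ATR to Chk1 at stalled forks, showed the widest contrast of the class inside the cocktail culture. Clspn had 11.7, 11.97 and 11.7 FPKM in cocktail CD44lo cells, against 31.3, 31.1 and 31.5 FPKM in cocktail CD44+CD62L+ cells. It fell (log2 fold change -1.33, SE 0.0471, limma adjusted p = 1.9e-11), with 0.574, 0.471 and 0.763 FPKM in naive cells.

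Polymerase alpha-primase lays down the RNA-DNA primers. Pola1 had 8.40, 9.40 and 9.08 FPKM in cocktail CD44lo cells, against 20.8, 20.6 and 20.4 FPKM in cocktail CD44+CD62L+ cells. Pola1, the catalytic polymerase subunit, fell (log2 fold change -1.12, SE 0.0368, limma adjusted p = 9.2e-12), whereas Pola2, its accessory subunit, differed less, with 28.01, 27.9 and 29.6 FPKM in cocktail CD44lo cells and 45.4, 45.1 and 46.4 in cocktail CD44+CD62L+ cells (log2 fold change -0.66, SE 0.0212, limma adjusted p = 7.3e-12). Prim1 had 33.1, 33.3 and 31.7 FPKM in cocktail CD44lo cells, 63.8, 63.2 and 62.2 in cocktail CD44+CD62L+ cells and 56.2, 57.5 and 57.6 in cocktail CD44+CD62L- cells. It stood at 64.4, 65.0 and 64.9 FPKM in IL-2 cells and 11.4, 11.4 and 12.004 in naive cells. Prim1, the catalytic primase, was the highest of the 4 in every cultured population. Prim2, the large primase subunit, averaged 17.8 ± 0.352 FPKM in cocktail CD44lo, 34.2 ± 0.787 in cocktail CD44+CD62L+, 30.6 ± 1.08 in cocktail CD44+CD62L-, 35.6 ± 1.38 in IL-2 and 6.43 ± 0.353 in naive cells (SD, n = 3). In naive cells Pola2 was the highest of the 4 at 23.3, 23.2 and 22.7 FPKM and Pola1 the lowest at 2.86, 3.11 and 3.06.

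The polymerases that extend the strands held 3 of the 4 genes that peaked in cocktail CD44+CD62L+ cells. Pole had 12.1, 11.999 and 12.3 FPKM in cocktail CD44lo cells, 27.3, 27.7 and 28.2 in cocktail CD44+CD62L+ cells and 23.2, 23.7 and 23.2 in cocktail CD44+CD62L- cells. It stood at 23.6, 23.7 and 23.8 FPKM in IL-2 cells and 2.48, 2.50 and 2.44 in naive cells. Pole, the catalytic subunit of the leading strand polymerase epsilon, was above IL-2 in cocktail CD44+CD62L+ cells (log2 fold change 0.22, SE 0.0172, limma adjusted p = 4.8e-08), overlapped it in cocktail CD44+CD62L- cells, and fell in cocktail CD44lo against cocktail CD44+CD62L+ cells (log2 fold change -1.13, SE 0.0172, limma adjusted p = 4.9e-15). Pole2 had 9.28, 8.59 and 9.66 FPKM in cocktail CD44lo cells, 15.8, 17.0 and 15.9 in cocktail CD44+CD62L+ cells and 15.4, 15.1 and 16.5 in cocktail CD44+CD62L- cells. It stood at 27.9, 27.1 and 25.7 FPKM in IL-2 cells and 13.3, 13.3 and 13.1 in naive cells. Pole2, its accessory subunit, was highest in IL-2 cells without overlap. Cocktail CD44lo cells had less Pole2 than naive cells (log2 fold change -0.48, SE 0.0440, limma adjusted p = 1.6e-07), and in IL-2 cells it missed the fold minimum against naive cells (log2 fold change 0.97, SE 0.0440, limma adjusted p = 5.1e-11), which it reached without IL-2 library 3 and with a pseudocount of 0.1. Pold1, the catalytic subunit of the lagging strand polymerase delta, stood at 60.0, 60.4 and 60.5 FPKM in cocktail CD44+CD62L+ cells, against 55.4, 54.6 and 53.3 in IL-2 cells (log2 fold change 0.15, SE 0.0151, limma adjusted p = 8.1e-07). Pold3, an accessory subunit, stood at 33.2, 32.6 and 33.1 against 31.2, 31.3 and 31.8 (log2 fold change 0.07, SE 0.0214, limma adjusted p = 0.012). Pold2 had 34.7, 34.3 and 33.9 FPKM in cocktail CD44lo cells, 52.9, 52.1 and 51.5 in cocktail CD44+CD62L+ cells and 48.8, 45.8 and 46.8 in cocktail CD44+CD62L- cells. It stood at 65.99, 68.0 and 67.7 FPKM in IL-2 cells and 25.7, 25.9 and 26.4 in naive cells. Pold2, another accessory subunit, was instead highest in IL-2 cells. Between cocktail CD44lo and cocktail CD44+CD62L+ cells the log2 fold changes of the 5 polymerase genes ranged over -1.13 to -0.57. They ranged over -0.70 to 0.22 in cocktail CD44+CD62L+ against IL-2 cells and -0.74 to -0.02 in cocktail CD44+CD62L- against IL-2 cells, with Pole2 the lowest in both.

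**Figure D3:**
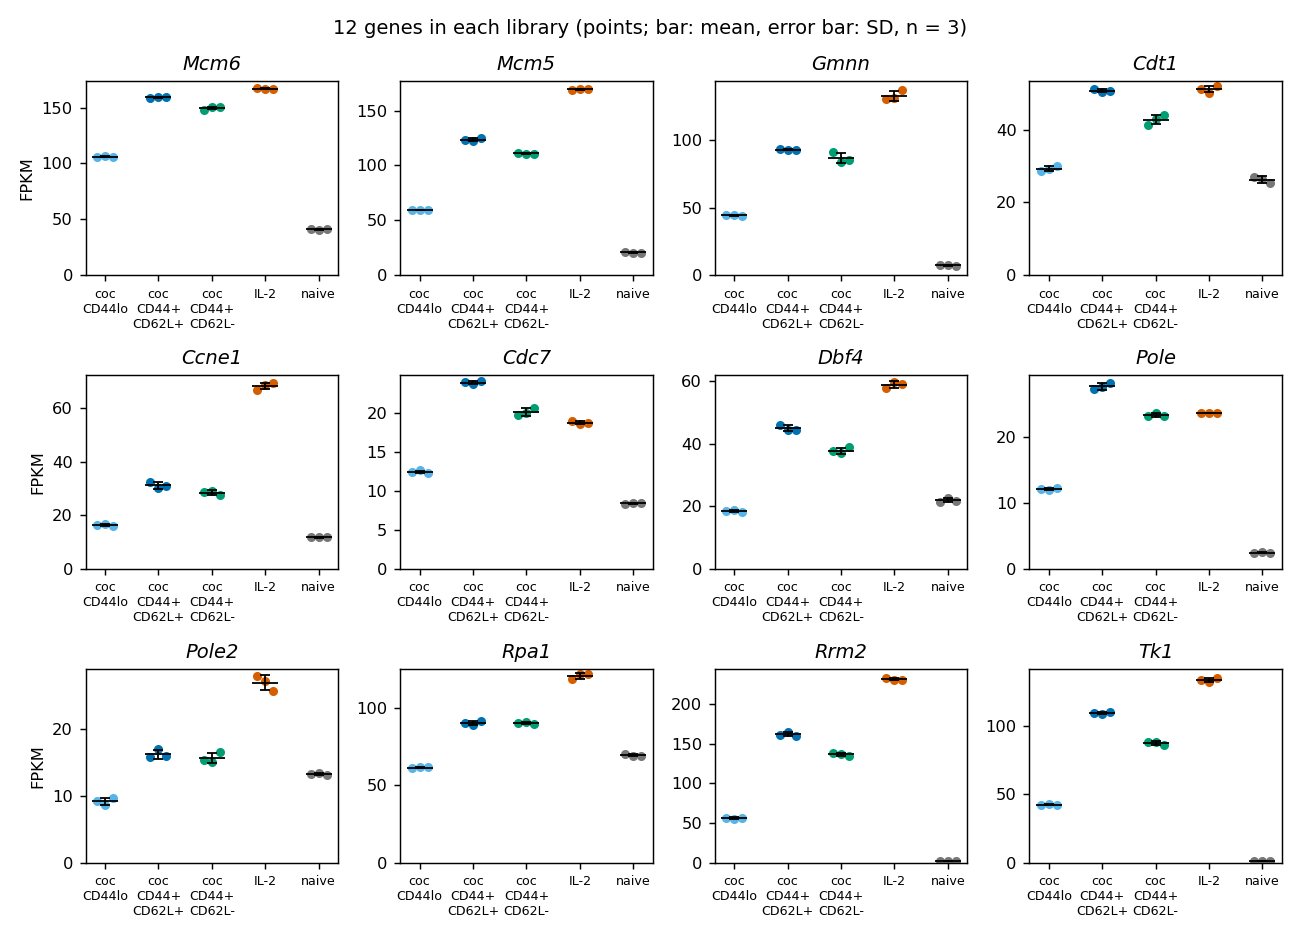
FPKM of 12 of the genes in each library (points), with the mean (horizontal bar) and SD (error bar, n = 3) of the 5 populations; coc stands for cocktail. Ccne1 stands highest in IL-2 cells, Cdc7 and Pole in cocktail CD44+CD62L+ cells, and Dbf4, Pole2 and Rpa1 are lower in cocktail CD44lo than in naive cells.

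Pcna, the sliding clamp, was the most abundant RNA of the list per length. Pcna had 249, 246 and 249 FPKM in cocktail CD44lo cells, 459.7, 463 and 458 in cocktail CD44+CD62L+ cells and 435, 432 and 437 in cocktail CD44+CD62L- cells. It stood at 579.6, 574 and 588 FPKM in IL-2 cells and 156, 158 and 161 in naive cells. Its populations did not overlap, and IL-2 cells exceeded naive cells by a log2 fold change of 1.87 with a limma adjusted p of 2.6e-20. Between cocktail CD44lo and cocktail CD44+CD62L+ cells it missed the fold minimum (log2 fold change -0.89, SE 0.0116, limma adjusted p = 1.4e-15). Replication factor C opens the clamp and loads it. Rfc1 had 19.4, 20.3 and 20.4 FPKM in cocktail CD44lo cells, 27.6, 26.6 and 28.4 in cocktail CD44+CD62L+ cells and 26.1, 27.1 and 27.4 in cocktail CD44+CD62L- cells. It stood at 29.8, 30.1 and 30.4 FPKM in IL-2 cells and 20.5, 21.1 and 20.1 in naive cells. Rfc1, the large subunit, differed least of the 52 genes between IL-2 and naive cells (log2 fold change 0.53, SE 0.0272, limma adjusted p = 2.3e-10). Its cocktail CD44lo and naive libraries overlapped (log2 fold change -0.04, SE 0.0272, limma adjusted p = 0.21). Rfc5 fell in cocktail CD44lo cells, with 24.7, 24.3 and 25.8 FPKM, against 54.9, 53.1 and 52.2 in cocktail CD44+CD62L+ cells (log2 fold change -1.07, SE 0.0321, limma adjusted p = 3.5e-12). Rfc4 was the loader gene that differed most between cocktail CD44+CD62L- and IL-2 cells, with 42.8, 44.2 and 41.3 against 63.7, 62.8 and 64.4 FPKM (log2 fold change -0.56, SE 0.0322, limma adjusted p = 1.5e-09). Rfc2 averaged 47.5 ± 1.14 FPKM in cocktail CD44lo and 78.3 ± 0.385 in cocktail CD44+CD62L+ cells, against 30.1 ± 1.07 in naive cells, and Rfc3 19.3 ± 0.376 and 38.5 ± 0.391, against 6.48 ± 0.340 (SD, n = 3 each).

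RPA coats single-stranded DNA during replication and repair. Rpa1 had 60.9, 61.6 and 61.5 FPKM in cocktail CD44lo cells, 90.0, 88.9 and 91.2 in cocktail CD44+CD62L+ cells and 90.2, 91.0 and 89.4 in cocktail CD44+CD62L- cells. It stood at 119, 122 and 121 FPKM in IL-2 cells and 70.5, 69.0 and 68.9 in naive cells. Rpa1, its largest subunit, was already abundant in naive cells. All cocktail CD44lo libraries were below naive (log2 fold change -0.18, SE 0.0135, limma adjusted p = 2.4e-08), and IL-2 cells were above naive by less than the fold minimum (log2 fold change 0.79, SE 0.0135, limma adjusted p = 9.7e-16). Cocktail CD44+CD62L+ and CD44+CD62L- libraries overlapped. None of the 3 RPA genes was called between cocktail CD44lo and cocktail CD44+CD62L+ cells. The largest difference was that of Rpa3, with 40.2, 38.3 and 36.9 against 76.7, 79.2 and 71.1 FPKM (log2 fold change -0.96, SE 0.0409, limma adjusted p = 1.4e-10), and it reached the fold minimum without cocktail CD44+CD62L+ library 3. Rpa2 had 34.5, 35.0 and 35.2 FPKM in cocktail CD44lo cells, 59.8, 58.1 and 57.5 in cocktail CD44+CD62L+ cells and 53.8, 52.4 and 53.4 in cocktail CD44+CD62L- cells. It stood at 69.1, 69.4 and 69.4 FPKM in IL-2 cells and 19.5, 19.3 and 20.1 in naive cells. Rpa2, the middle subunit, was the lowest of the 3 in all populations.

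Okazaki fragments are trimmed by the flap endonuclease Fen1 and sealed by DNA ligase I (Lig1). Lig1 had 37.9, 35.5 and 36.6 FPKM in cocktail CD44lo cells, 85.5, 85.3 and 84.9 in cocktail CD44+CD62L+ cells and 75.97, 75.1 and 74.9 in cocktail CD44+CD62L- cells. It stood at 107, 106 and 107 FPKM in IL-2 cells and 6.85, 6.96 and 6.36 in naive cells. Lig1 populations did not overlap, and it fell in cocktail CD44lo against cocktail CD44+CD62L+ cells (log2 fold change -1.20, SE 0.0267, limma adjusted p = 1.7e-13). Fen1 had 25.3, 25.2 and 24.6 FPKM in cocktail CD44lo cells, 54.9, 56.7 and 55.7 in cocktail CD44+CD62L+ cells and 53.7, 50.2 and 52.5 in cocktail CD44+CD62L- cells. It stood at 75.0, 74.6 and 73.6 FPKM in IL-2 cells and 10.4, 10.5 and 10.2 in naive cells. Fen1 was also called lower there and was highest in IL-2 cells.

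Nucleotide synthesis genes supply the deoxynucleotides, and held the largest log2 fold changes of cocktail CD44lo over naive cells, those of Tk1 and Rrm2. Rrm2 had 56.6, 54.7 and 56.5 FPKM in cocktail CD44lo cells, 161, 165 and 160.5 in cocktail CD44+CD62L+ cells and 138, 137 and 134 in cocktail CD44+CD62L- cells. It stood at 233, 231 and 231 FPKM in IL-2 cells and 1.77, 1.94 and 1.92 in naive cells. Rrm2, the small subunit of ribonucleotide reductase, rose over naive cells by 4.31 in cocktail CD44lo, 5.83 in cocktail CD44+CD62L+, 5.58 in cocktail CD44+CD62L- and 6.34 in IL-2 cells on the log2 scale, the last with a limma adjusted p of 1.0e-22. It had the most negative change of the list in cocktail CD44lo against cocktail CD44+CD62L+ cells (log2 fold change -1.52, SE 0.0214, limma adjusted p = 2.6e-15), and gave -0.76 with a limma adjusted p of 8.3e-13 in cocktail CD44+CD62L- against IL-2 cells. Tk1 had 41.9, 42.7 and 42.2 FPKM in cocktail CD44lo cells, 109, 109 and 110.2 in cocktail CD44+CD62L+ cells and 88.1, 88.6 and 86.1 in cocktail CD44+CD62L- cells. It stood at 134, 133 and 135 FPKM in IL-2 cells and 1.04, 1.06 and 1.18 in naive cells. Tk1, thymidine kinase of the salvage route, was near 1 FPKM in naive cells and rose in cocktail CD44lo cells (log2 fold change 4.37, SE 0.0215, limma adjusted p = 7.4e-21). Against cocktail CD44+CD62L+ cells, Tk1 fell in cocktail CD44lo cells (log2 fold change -1.35, SE 0.0215, limma adjusted p = 7.4e-15). Dut, which clears dUTP, differed least of the 5, with 46.0, 47.0 and 46.6 FPKM in cocktail CD44lo cells, against 79.2, 82.2 and 81.0 in cocktail CD44+CD62L+ cells (log2 fold change -0.78, SE 0.0197, limma adjusted p = 5.7e-13). Tyms had 8.53, 8.94 and 8.70 FPKM in cocktail CD44lo cells, 22.7, 22.7 and 22.5 in cocktail CD44+CD62L+ cells and 19.3, 19.4 and 19.1 in cocktail CD44+CD62L- cells. It stood at 26.4, 26.8 and 27.1 FPKM in IL-2 cells and 2.07, 1.90 and 1.97 in naive cells. Tyms, which makes thymidylate, was called lower in cocktail CD44lo than in cocktail CD44+CD62L+ cells. Rrm1, the large reductase subunit, was called lower as well, at 39.1 ± 0.655 FPKM in cocktail CD44lo and 96.3 ± 1.43 in cocktail CD44+CD62L+ cells, against 9.09 ± 0.0592 in naive cells (SD, n = 3 each).

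The remaining members act in histone supply and chromatin assembly. Chaf1a had 17.3, 17.2 and 17.0 FPKM in cocktail CD44lo cells, against 38.7, 37.7 and 39.0 FPKM in cocktail CD44+CD62L+ cells. Chaf1a, the large subunit of the histone chaperone CAF-1, fell (log2 fold change -1.12, SE 0.0357, limma adjusted p = 6.7e-12), had 0.906, 1.02 and 1.19 FPKM in naive cells and gave -0.57 with a limma adjusted p of 4.4e-09 in cocktail CD44+CD62L- against IL-2 cells. Chaf1b, the middle subunit, averaged 19.4 ± 0.334 FPKM in cocktail CD44lo, 31.6 ± 0.507 in cocktail CD44+CD62L+, 32.2 ± 0.524 in cocktail CD44+CD62L-, 47.2 ± 0.719 in IL-2 and 7.42 ± 0.243 in naive cells (SD, n = 3). Slbp had 73.1, 71.6 and 71.7 FPKM in cocktail CD44lo cells, 114, 115 and 115 in cocktail CD44+CD62L+ cells and 104, 105 and 107 in cocktail CD44+CD62L- cells. It stood at 125, 123 and 123 FPKM in IL-2 cells and 39.2, 42.0 and 40.7 in naive cells. Slbp, which binds the stem-loop of histone mRNAs, was the highest of the 3 in every population.

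Subunits of 1 complex were closer in level in the cultured cells than in naive cells for most of the complexes shown, as ratios of FPKM per transcript length. Only subunits among the 52 genes were used, so Pold4 of polymerase delta, given below, was left out. The ratio of Dbf4 to Cdc7 was 3.15 in IL-2 cells, against 2.63 in naive cells, and was lower than in naive cells in the cocktail populations. In polymerase epsilon, Pole was the higher in the 3 cocktail populations, and Pole2 was 1.13 ± 0.0511 times Pole in IL-2 cells and 5.35 ± 0.00660 times Pole in naive cells. In ribonucleotide reductase, the ratio of Rrm2 to Rrm1 was 1.43 ± 0.0424 in cocktail CD44lo, 1.69 ± 0.0266 in cocktail CD44+CD62L+, 1.63 ± 0.0300 in cocktail CD44+CD62L-, 1.99 ± 0.0398 in IL-2 and 0.206 ± 0.0100 in naive cells. Rrm1 was thus the higher in naive cells only. In CAF-1, Chaf1a and Chaf1b were within 1.22 times of each other in every cultured population, and Chaf1b was 7.24 ± 1.03 times Chaf1a in naive cells. For MCM2-7 the ratio of highest to lowest subunit was largest in cocktail CD44lo cells, with 2.60 ± 0.0400 there, 2.32 ± 0.0210 in cocktail CD44+CD62L+, 2.08 ± 0.0409 in cocktail CD44+CD62L-, 1.98 ± 0.0265 in IL-2 and 2.00 ± 0.0723 in naive cells (SD, n = 3 for each ratio). The RPA ratio was 1.74 ± 0.0189 in IL-2 cells, against 3.54 ± 0.103 in naive cells, and the RFC2-5 ratio was 2.31 ± 0.109 in IL-2 cells, against 4.66 ± 0.355 in naive cells, while that of polymerase delta was 2.14 ± 0.0298 in IL-2 cells, against 1.76 ± 0.0250 in naive cells.

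**Figure D4:**
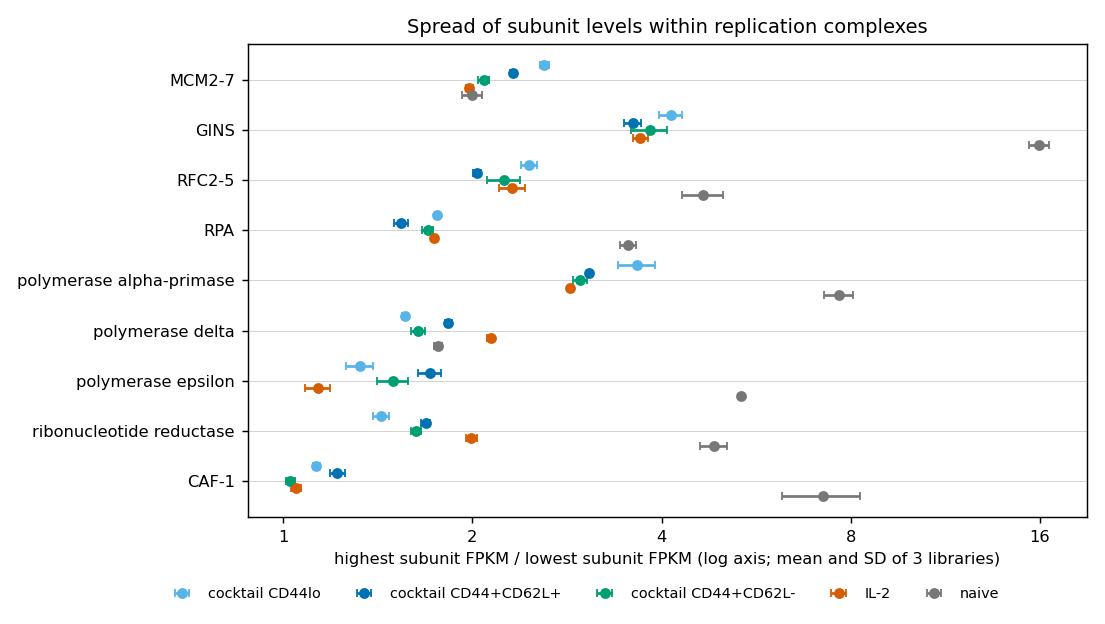
Ratio of the highest to the lowest subunit FPKM in each of 9 complexes (log axis), as the mean of 3 libraries with SD, by population. Only subunits among the listed genes were used. GINS, RFC2-5, RPA, polymerase alpha-primase, polymerase epsilon, ribonucleotide reductase and CAF-1 have their widest spread in naive cells, and MCM2-7 and polymerase delta do not.

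Other replication genes, from lists of 10 to 21 tested genes, had smaller shares of called genes. Between cocktail CD44lo and cocktail CD44+CD62L+ cells, 4 of 21 other replisome genes fell and 0 rose (median -0.84), and the numbers lower were 2 of 10 other chromatin replication genes (-0.78), 1 of 10 other licensing genes (-0.23) and 0 of 16 other nucleotide synthesis genes (-0.53). The E2F and RB list had 2 of 15 lower (-0.40) and the replication checkpoint list 1 of 12 (-0.51), none higher in either. Over all genes tested, 2.26% fell and 0.418% rose in this comparison. The genes named next were picked as the most negative of their list in it, so their limma values are no further test. In the replisome list, 2810417H13Rik, which RefSeq lists as Pclaf, a PCNA-associated factor, fell, with 58.5 ± 0.306 FPKM in cocktail CD44lo cells and 170.4 ± 1.80 in cocktail CD44+CD62L+ cells (SD, n = 3 each, log2 fold change -1.53, limma adjusted p = 7.4e-14). Ccna2, cyclin A2 of the checkpoint list, fell as well, at 42.6 ± 0.504 against 155 ± 0.661 FPKM (-1.84, limma adjusted p = 2.3e-16). So did the repressor E2f8, at 9.45 ± 0.242 against 28.7 ± 0.293 FPKM (-1.51, limma adjusted p = 4.4e-15), the histone chaperone Asf1b, at 23.6 ± 0.741 against 68.8 ± 0.312 FPKM (-1.50, limma adjusted p = 1.6e-14), and Fbxo5, an inhibitor of the anaphase-promoting complex, at 20.2 ± 1.04 against 57.7 ± 1.18 FPKM (-1.47, limma adjusted p = 7.6e-14).

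Samhd1 and Pold4, of the same lists, were higher in cocktail CD44lo than in cocktail CD44+CD62L+ cells without reaching 2-fold. Each was picked as the most positive of its list there, so its limma value is no further test. Samhd1, which breaks down deoxynucleotides, averaged 416 ± 0.955 FPKM in cocktail CD44lo cells, 249 ± 1.09 in cocktail CD44+CD62L+, 283 ± 3.19 in cocktail CD44+CD62L-, 151 ± 1.44 in IL-2 and 138 ± 1.09 in naive cells (SD, n = 3). It was highest in cocktail CD44lo cells (log2 fold change 0.74, limma adjusted p = 1.4e-15, against cocktail CD44+CD62L+ cells). Pold4, the small subunit of polymerase delta, averaged 75.2 ± 2.76 FPKM in cocktail CD44lo cells, against 52.2 ± 0.516 in cocktail CD44+CD62L+ cells (log2 fold change 0.52, limma adjusted p = 4.4e-08). Dctpp1, which removes unusual deoxycytidine triphosphates, had the most negative change of its list there, -0.84, and was not called. It fell in cocktail CD44+CD62L- against IL-2 cells, at 47.7 ± 3.28 against 116 ± 1.27 FPKM (-1.26, limma adjusted p = 2.7e-12). In that comparison 3 of 16 other nucleotide synthesis genes fell and 0 rose, against 3.20% and 4.64% of all genes tested. The lowest log2 fold change of that list was -1.74, so that of Dctpp1 was not the largest fall.

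The 52 replication genes summed to 1738 ± 1.39 FPKM in cocktail CD44lo, 3322 ± 6.72 in cocktail CD44+CD62L+, 3024 ± 7.00 in cocktail CD44+CD62L-, 4172 ± 9.23 in IL-2 and 861 ± 3.84 in naive cells (SD, n = 3). A list of 15 mitosis genes did not share the lead of IL-2 cells, with 508 ± 1.40, 1618 ± 7.55, 1255 ± 6.16, 1411 ± 3.00 and 17.1 ± 0.998 FPKM in the same order. The cocktail CD44+CD62L+ libraries thus lay below IL-2 in the replication sum and above it in the mitosis sum, without overlap in either. The median log2 fold change of the mitosis genes in that comparison was 0.16, with 0 of 15 called where 3.49% of all genes tested fell and 4.67% rose, against -0.32 for the replication genes (-0.17 under quantile normalization). Between cocktail CD44lo and cocktail CD44+CD62L+ cells all 15 fell, against 2.26% of all genes tested, with a median log2 fold change of -1.71. Plk1, a mitotic kinase, had the most negative of these changes, at 20.99 ± 0.554 against 86.5 ± 0.937 FPKM (-1.99, limma adjusted p = 1.1e-15).

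Replication-dependent histone genes are transcribed in S phase. Here they were taken as all symbols starting Hist1h, Hist2h or Hist3h, without a check of each gene, and were low in this table. Of 66 in the table, 35 passed 1 FPKM, and 34 were listed at 0 in all naive libraries. Their sums were 69.0 ± 1.08 FPKM in cocktail CD44lo, 80.8 ± 1.79 in cocktail CD44+CD62L+, 80.1 ± 6.38 in cocktail CD44+CD62L-, 157 ± 1.18 in IL-2 and 31.2 ± 0.917 in naive cells (SD, n = 3). IL-2 cells exceeded all others without overlap, and 14 of 35 fell and 2 rose in cocktail CD44+CD62L- against IL-2 cells, where 3.20% of all genes tested fell and 4.64% rose. Over the 35, the median log2 fold change was -0.85. An average of 1 FPKM or more was reached by 34 in IL-2 cells and 17 in cocktail CD44+CD62L- cells. The filter can thus favour genes that are high in IL-2 cells, so these counts and the median are a description and no test. Most of these mRNAs have no poly(A) tail and near-identical copies share reads, so levels of single histone genes are uncertain.

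**Figure D5:**
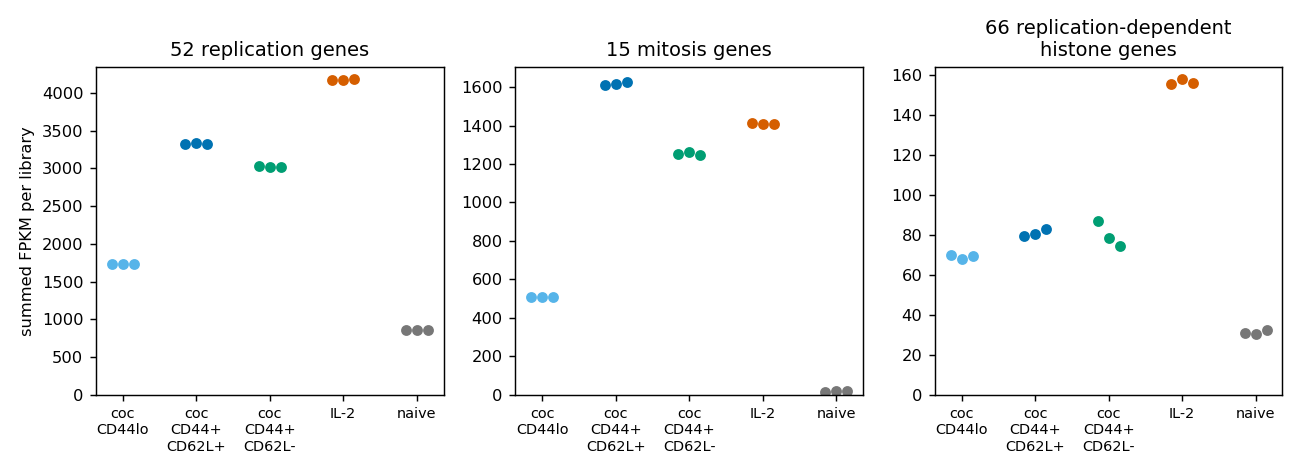
Summed FPKM per library of the 52 replication genes, the 15 mitosis genes and the 66 genes taken by symbol as replication-dependent histone genes, by population. Here coc stands for cocktail and axes start at 0. IL-2 libraries are highest for replication and histone genes, and cocktail CD44+CD62L+ libraries are highest for mitosis genes.

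Summed markers of other cell types differed between some of the populations. The 19 dendritic cell and macrophage markers, 15 of which passed 1 FPKM, summed to 274 to 283 FPKM in cocktail CD44lo, 269.7 to 282 in cocktail CD44+CD62L+, 296 to 305 in cocktail CD44+CD62L-, 176 to 180.4 in IL-2 and 335 to 338 in naive cells. Between cocktail CD44+CD62L- and IL-2 cells 7 of the 15 were higher and 1 lower, against 4.64% and 3.20% of all genes tested. An average of 1 FPKM or more was reached by 6 in IL-2, 11 in cocktail CD44+CD62L- and 13 in naive cells. The filter can thus favour markers that are low in IL-2 cells, so these counts are a description and no test. Between cocktail CD44lo and cocktail CD44+CD62L+ cells 0 of the 15 were called, where 0.418% of all genes tested were higher and 2.26% lower. Clec9a was listed at 0 in all cultured libraries, Flt3 in cocktail CD44lo and C1qa in IL-2 cells. The 4 CD4 T cell markers summed to 8.14 to 9.01, 10.1 to 10.6, 11.02 to 11.5, 16.5 to 17.4 and 7.74 to 9.41 FPKM in the same order, and the 4 NK cell markers to 40.4 to 41.2, 34.5 to 36.4, 28.2 to 28.5, 11.7 to 12.5 and 19.6 to 20.2. Erythroid, platelet and neutrophil markers summed to 1.49 to 1.67, 1.99 to 5.39, 3.96 to 4.81, 0.129 to 0.345 and 24.5 to 28.5. Only 1 of the 4 NK cell markers averaged 1 FPKM or more in each cocktail population and in naive cells. Between cocktail CD44+CD62L- and IL-2 cells, 1 of 3 tested CD4 T cell markers was higher and 1 lower. Of 2 tested NK cell markers 1 was higher and 1 lower. Of 6 tested B cell markers 0 were higher and 1 lower. Of 3 tested erythroid, platelet and neutrophil markers 3 were higher, and 0 of them averaged 1 FPKM in IL-2 cells. The part of these lists, B cell markers included, in the replication gene differences was not tested.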

How the data were processed

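RNA of 5 sorted populations of mouse OT-I CD8 T cells was sequenced as 3 technical replicates each, per the labels. The FPKM values are normalized values that the authors deposited, 1 column per library, and the submitters' processing notes name TopHat2 2.0.9, Cuffdiff 2.1.1 and the mouse build mm10. The sources used here give neither the annotation nor the library strandedness or poly(A) selection. FPKM carries no depth, and reads could not be recovered. Of 14067 ratios between libraries of low genes, 21.9% came within 0.05 of being whole, where evenly spread ratios would give 10%. Ratios just above 1 between close libraries also count there, so this share cannot show whether the values step by whole reads. Of the entries, 6039 were at 0 in every library, Eef1a1 among them, so a 0 can be a failed estimate.

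Values were taken to log2(FPKM + 1), where a fold change understates the change of low genes, and genes were kept when some population averaged 1 FPKM or more. Limma 3.58.1 in R 4.3.3 (lmFit, eBayes with a mean-variance trend) was fitted to all 15 libraries, with Benjamini-Hochberg adjustment over the 11242 genes within each of 8 comparisons. A gene was called at an adjusted p under 0.05 and a fold of at least 2. The steps were tested on simulated data. With 3 against 3 libraries an exact two-sided permutation test cannot go below p = 0.1. The members and the gene, marker and motif lists were chosen with earlier results of these data known. Library values are given, within each of the 11 roles, for the gene with the highest mean and those with the extreme fold changes in cocktail CD44lo against cocktail CD44+CD62L+ cells and in cocktail CD44+CD62L- against IL-2 cells. Tk1, Pold1, Gins1 and Gins3, also given library by library, were chosen after their values were seen. Genes named from the other replication and mitosis lists had the highest mean or the extreme fold changes of their list in cocktail CD44lo against cocktail CD44+CD62L+ cells. Gene positions are from GENCODE vM21 and promoters from RefSeq, GRCm38.p6. Replicate numbers did not pair libraries across populations: over 30 same-numbered pairs the correlation of deviations was -0.24 to 0.18. Alternatives were other pseudocounts, filters, scalings, fold minimum, fits and each library left out.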

Additional observations from a re-analysis of the deposited data

Results flagged for a closer look

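Dbf4, Pole2 and Rpa1 stood below naive cells in cocktail CD44lo cells and above naive cells in the other cultured populations, an opposite direction under the same contrast. The log2 fold change of cocktail CD44lo over naive cells was -0.243 for Dbf4, -0.484 for Pole2 and -0.176 for Rpa1, in 3 of 3 libraries each. Over all genes tested, 45.8% had every cocktail CD44lo library below naive cells, a larger share than 3 of the 52 genes. Cocktail CD44+CD62L+ cells lay above naive cells in 3 of 3 libraries for each gene, as for 45.3% of all genes tested. These genes were picked by that pattern in the same libraries. A lower level in cocktail CD44lo than in cocktail CD44+CD62L+ cells was thus fixed by the choice, and its limma values are no further test. That difference was -1.24 for Dbf4 (limma adjusted p = 6.2e-14), -0.76 for Pole2 (limma adjusted p = 3.5e-09) and -0.55 for Rpa1 (limma adjusted p = 4.6e-13) on the log2 scale. Pole2 averaged 9.18 ± 0.543 FPKM in cocktail CD44lo and 16.2 ± 0.665 in cocktail CD44+CD62L+ cells, against 13.2 ± 0.146 in naive cells (SD, n = 3 each).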

How the results depend on the processing

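The count of replication genes lower in cocktail CD44lo than in cocktail CD44+CD62L+ cells (22) was 10 with a pseudocount of 5, 46 at 1.5-fold and 22 to 24 with a library left out. The count higher in cocktail CD44lo than in naive cells (31) was 20 with a pseudocount of 5. The count lower in cocktail CD44+CD62L- than in IL-2 cells (1) was 2 with a pseudocount of 0.1, 2 under quantile normalization, 12 at 1.5-fold and 1 to 2 with a library left out. The count lower in cocktail CD44+CD62L+ than in IL-2 cells (1) was 2 with a pseudocount of 0.1, 0 under quantile normalization and 4 at 1.5-fold. Quantile normalization reversed Mcm6 in cocktail CD44+CD62L- against IL-2 cells (0.045, against -0.16 as reported), Pole in that comparison (0.022, against -0.02) and, in cocktail CD44+CD62L+ against IL-2 cells, Cdt1 (0.08, against -0.01), Mcm6 (0.14, against -0.07), Prim1 (0.09, against -0.04), Prim2 (0.01, against -0.05), Rfc5 (0.01, against -0.10) and Slbp (0.09, against -0.11), and the cause was not tested. The median of the 52 in that comparison was -0.17, against -0.32 as reported. Quantile normalization also moved the median log2 fold change of all genes tested by -0.11 in cocktail CD44+CD62L+ and -0.10 in cocktail CD44+CD62L- against naive cells. Median-ratio scaling, no filter, a filter of 5 FPKM, fits of the 6 libraries compared and a fit without the variance trend were also tried. None changed a call among the 70 fold changes examined, and each of the 16 counts stayed within 1.5-fold of its reported value. The same held for the replicate number as a block in the model. It gave 22 lower in cocktail CD44lo against cocktail CD44+CD62L+ cells and, against naive cells, 31 higher in cocktail CD44lo, 44 in cocktail CD44+CD62L+, 43 in cocktail CD44+CD62L- and 47 in IL-2 cells. Of 15 libraries, 3 were most like one of their own number. The 3 libraries of a population are technical, so differences between cultures or mice were not measured, and unknown depth leaves the precision of low naive values, such as those of Orc1 and Ccne2, unstated.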
